A study of Mus musculus with 3 samples.

Results

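The cells described here are barcodes of mouse nasal mucosa chosen by the measured counts of 6 genes: Alox12e, Gp2, Clca1, Slco1a5, Serpinb11 and Kcnj16. A barcode had to hold at least 500 unique molecular identifiers (UMIs, each a counted RNA molecule), at least 200 genes and at most 20% mitochondrial UMIs. It then had to show at least 3 of the 6 genes at 2 or more UMIs and no UMI of Ptprc, the pan-leukocyte gene. The rule selected 984 of 32376 barcodes, which are called rule cells below. Single-cell RNA was measured in C57BL/6J mice of 3 groups, each with equal numbers of males and females. Control mice were given PBS intranasally. Papain mice had 20 µg of the protease papain, which provokes allergic airway inflammation, put in the nose and PBS by gavage. The papain+LND mice were given the same papain and, by gavage, 10 mg/kg lonidamine (LND), a compound known to inhibit hexokinase and the transport of lactate and pyruvate. The mucosa of all mice of a group was mixed into 1 library, and neither the number of mice nor their age is given in the sources used here. An oddity of the labels is that the papain sample has Fibroblast as its library name; its stated treatment was followed. With 1 library per group there is no replicate check of any difference below, and no test between groups was made.

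The nasal lining is a mixed epithelium in which basal cells renew secretory and goblet cells that coat the surface with mucins, antimicrobial proteins and detoxifying enzymes. In allergic airway inflammation the type 2 cytokine IL-13 is known to act on this epithelium through the transcription factor STAT6 and to turn on a set of genes that includes Muc5ac, Clca1, Alox15, Itln1 and Fcgbp. Of the 6 rule genes, Alox12e encodes the epidermal-type 12-lipoxygenase, Clca1 a secreted protein of goblet cells, and Gp2 a membrane glycoprotein known from microfold (M) cells that sample microbes. Slco1a5 encodes an organic anion transporter, Serpinb11 an intracellular serpin and Kcnj16 an inwardly rectifying potassium channel.

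The rule cells carried epithelial RNA. The summed level of 6 epithelial markers (Epcam, Cdh1, Krt7, Krt8, Krt18 and Krt19) was 5754 CPM (UMIs of a gene summed over cells, per 1000000 UMIs summed over all genes) in rule cells of the PBS library, 6828 in papain and 5477 in papain+LND, against 2385, 2896 and 2374 in the other barcodes. At least 3 of these markers at 2 UMIs were found in 38, 471 and 469 rule cells. The 5 immune markers summed to between 12.3 and 18.2 CPM in rule cells against 725 to 931 in the other barcodes, with Ptprc at 0 by the rule. The 4 neutrophil markers summed to 17.25, 11.04 and 40.70 CPM, with Csf3r and Retnlg at 0 in PBS, and the 6 fibroblast markers to 71.5, 154 and 133. Markers of mature olfactory neurons were also present, at 1261, 364 and 412 CPM against 16819, 4195 and 4172 in the other barcodes. Gene lists were also counted without the rule cells that held 3 of these markers at 2 UMIs. The part of this RNA in the results was not otherwise tested. A median rule cell held 20395 UMIs in PBS, 16272 in papain and 14579 in papain+LND, against 7389, 6382 and 5715 in other barcodes. Ribosomal RNA made up 0.850%, 2.47% and 2.37% of the rule cells' UMIs. Scrublet, a doublet caller, marked 0, 12 and 14 rule cells, which were kept. The libraries shared 22 to 38 barcodes by pair, and no barcode was a rule cell in both libraries of a pair.

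Rule cells were rare after PBS and about as common in both papain groups. They numbered 38 of 9515 barcodes (0.399%, 95% exact binomial interval 0.283 to 0.548) in the PBS library. In the papain library there were 475 of 10712 (4.43%, 4.05 to 4.84), and in papain+LND 471 of 12149 (3.88%, 3.54 to 4.23). The share was thus 11.1-fold higher with papain than with PBS (7.97 to 15.9), and the papain+LND share was 0.874 of the papain share (0.768 to 0.995). These intervals, like all intervals below, cover counting error only and hold nothing of the spread between mice or preparations. The rule was set with earlier results of these data known, and Clca1 had 0 UMIs in the PBS barcodes. PBS barcodes could thus meet the rule only through the other genes. The ratio of papain over PBS is therefore a description of the rule and not a test. A share of all barcodes also moves with the other cells of a library. Among barcodes that met the epithelial criterion above, rule cells made up 1.71% of 2220, 12.8% of 3668 and 12.4% of 3779, a ratio of 7.50 for papain over PBS and of 0.967 for papain+LND over papain. When every barcode was thinned to 5000 UMIs and the shallower ones were left out (2825, 3869 and 5057), the rule found 11 of 6690 (0.164%), 266 of 6843 (3.89%) and 270 of 7092 (3.81%). Sex moved with the groups too: barcodes with Xist and no Y-linked UMI numbered 3920, 5853 and 7928, and those with the reverse 2981, 2125 and 1592. Within female barcodes the rule cells made up 0.689%, 6.13% and 4.92%, and within male barcodes 0.101%, 3.34% and 2.70%.

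**Figure D1:**
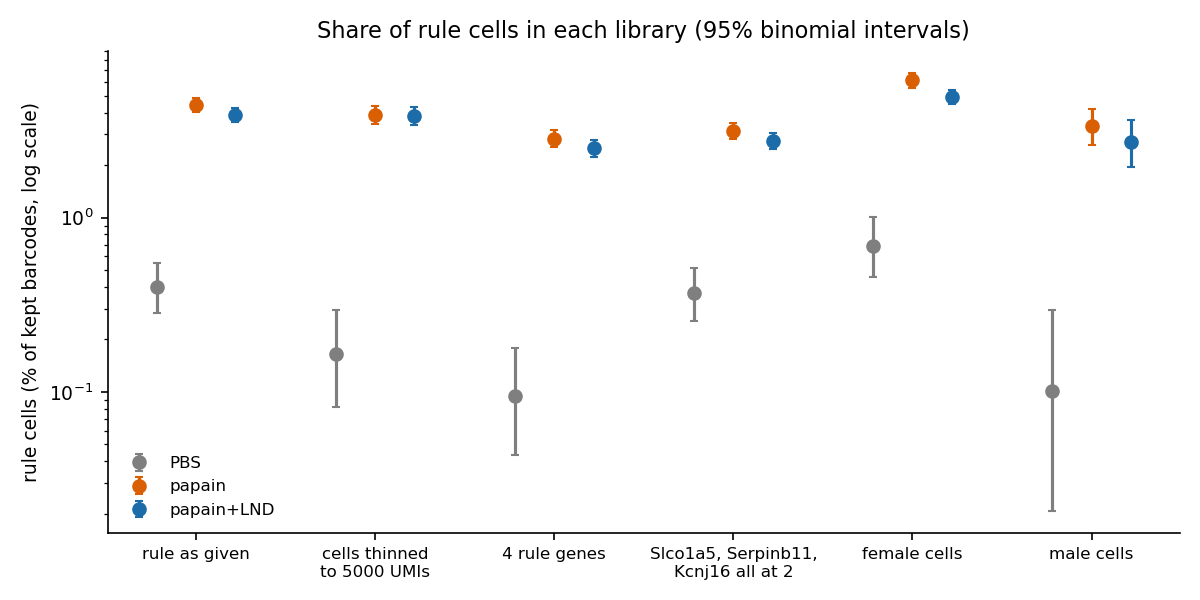
The share of barcodes that are rule cells (percent, log axis) in each library, with exact binomial 95% intervals, for the rule as given and for 5 other ways of counting. PBS lies lowest in every column, and the papain and papain+LND points lie close together, with 4.43% and 3.88% for the rule as given.

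Slco1a5, Serpinb11 and Kcnj16 were shared by most rule cells of every library, and Alox12e was added to them in most papain cells. All 3 were at 2 UMIs in 35 PBS, 335 papain and 333 papain+LND rule cells. In PBS 26 of the 38 cells (68.4%) had exactly these 3 genes, as had 64 papain cells (13.5%). With papain the most common combination was Alox12e with those 3 genes, in 155 cells (32.6%), and 5 PBS cells (13.2%) had it. All 6 genes were at 2 UMIs in 0, 22 and 8 cells. Alox12e stood at 32.0 CPM in PBS rule cells, 747 with papain and 733 with papain+LND, and 18.4%, 79.2% and 82.4% of rule cells held at least 2 of its UMIs. Clca1 was at 0 UMIs in PBS, 138 CPM with papain and 96.3 CPM with papain+LND. Against a floor of 3 counts over all PBS rule cells this is at least 37.3-fold higher with papain, and 0 of 38 cells allow a share of up to 9.25%. Gp2 stood at 128, 137 and 93.5 CPM. Only 15.8%, 28.8% and 22.9% of rule cells carried Gp2 at 2 UMIs, and 0%, 14.1% and 10.8% carried Clca1, so the 2 genes mark minorities of these cells. Serpinb11 (737, 1023 and 922 CPM), Kcnj16 (405, 382 and 432) and Slco1a5 (235, 310 and 331) were carried by 77.1% to 100% of rule cells in every library. The rule cells held 12.2%, 78.8% and 76.0% of the Alox12e UMIs of the 3 libraries, and 94.6%, 86.0% and 72.0% of the Gp2 UMIs. Of Clca1 they held 90.1% with papain and 89.7% with papain+LND. Since these genes chose the cells, their levels and shares are a description.

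**Figure D2:**
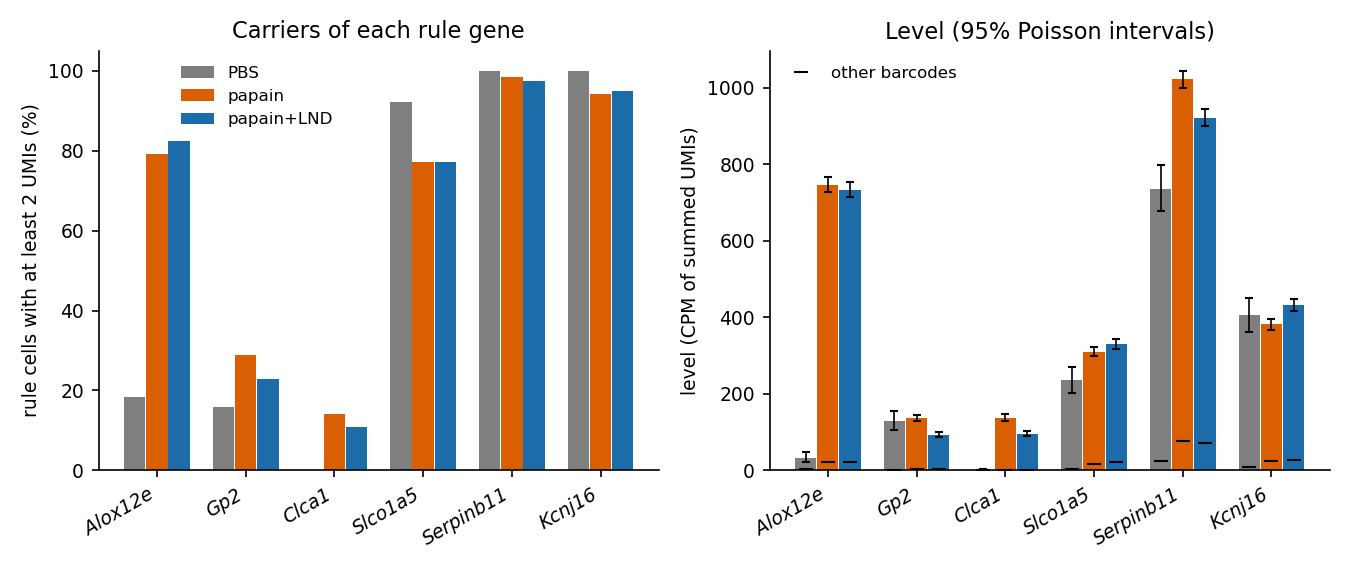
Left, the percentage of rule cells with at least 2 UMIs of each of the 6 rule genes in the 3 libraries. Right, the CPM of the summed UMIs with 95% Poisson intervals (black dashes, all other barcodes of the same library): Alox12e stands at 32.0 CPM in PBS and at 747 and 733 in the papain libraries, while Kcnj16 stays between 382 and 432.

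The papain and PBS cells can also be set side by side without use of Alox12e. When at least 3 of the other 5 genes were asked for, 37, 392 and 376 barcodes qualified. Alox12e then stood at 30.03, 765 and 790 CPM, and 27.0%, 85.2% and 85.6% of these cells held a UMI of it, against 0.397%, 4.10% and 2.30% of mature olfactory neurons. The cells with Slco1a5, Serpinb11 and Kcnj16 all at 2 UMIs made up 0.368%, 3.13% and 2.74% of barcodes. At the edge of the rule, 351 papain cells had 2 rule genes at 2 UMIs and 172 had 3. The former held 91.9 CPM of Alox12e, 494 of Serpinb11 and 17583 of Reg3g at a median of 14005 UMIs. The latter held 311, 791 and 33884 CPM at 15705 UMIs. In PBS the 124 cells with 2 rule genes held 11025 CPM of Reg3g and the 29 with 3 held 18194.

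The genes with the largest ratios of rule cells over other barcodes in both papain libraries included Muc5ac, Reg3g, Gsto1 and Aldh1a1. Genes were measured where the mean of both sides was at least 50 CPM, and called at a ratio of 2 or more. In the papain library 281 of 3379 genes (8.32%) were higher in rule cells than in the other barcodes and 420 (12.4%) were lower. In PBS 411 of 3494 (11.8%) were higher and 464 (13.3%) lower, and in papain+LND 259 of 3424 (7.56%) and 401 (11.7%). Nothing is read from these shares, since the 6 genes picked the cells. Reg3g, a secreted antimicrobial lectin, was the most abundant of the leading genes: it stood at 23728 CPM in PBS rule cells, 49146 with papain and 44640 with papain+LND, against 2852 in the other papain barcodes. Its median over single papain rule cells was 46882 CPM. Gsto1, an omega-class glutathione transferase, stood at 3486, 10794 and 11228 CPM, and 917 in the other papain barcodes. Aldh1a1, an enzyme that makes retinoic acid, stood at 1244, 2760 and 3264 CPM against 202. The level of each was higher in the rule cells of both papain libraries than in those of PBS.

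By summed CPM, other leading genes were about as high in the PBS rule cells. Pigr, the receptor that carries IgA across epithelium, stood at 1682, 2333 and 2492 CPM. Its median over single cells was lower in PBS, at 573, 1872 and 1977 CPM. Krt19 stood at 1109, 1192 and 943 CPM. Sftpd, a collectin of the innate defence, stood at 757, 980 and 937 CPM. The acute-phase protein Hp (906, 664 and 556 CPM) and the cytochromes P450 Cyp4b1 (357, 213 and 324) and Cyp4a12b (430, 272 and 396) were highest in PBS. Gabrp, a GABA-A receptor subunit, held 332, 335 and 336 CPM, and the membrane mucin Muc1 332, 490 and 396. Of the airway club and secretory list 9 of 10 measured genes were higher in papain rule cells than in other barcodes. Cyp2f2, a cytochrome P450 typical of club cells, stood at 10664, 7229 and 9293 CPM in rule cells, against 1976 in the other papain barcodes, while Scgb1a1, the classical club-cell secretoglobin, was at 0 UMIs in all 3. In the papain library Cyp2f2 was called higher against the goblet and secretory cells described below, but not against the basal cells. Of the antimicrobial and acute-phase list 8 of 11 were higher than in the other papain barcodes, among them Ltf and Lyz2, and S100a8 and S100a9 were lower. Against goblet and secretory cells 2 of 10 were higher (Reg3g and Ltf) and 4 lower (Lcn2, Bpifa1, Bpifb1 and Slpi), with a median of -0.13. Against basal cells 8 of 10 were higher and 1 lower. In the ion and fluid transport list 7 of 12 were higher than in the other papain barcodes, among them Ano1, a calcium-activated chloride channel, at 249, 268 and 314 CPM. All 5 measured genes of antigen presentation by MHC class II were lower than in the other barcodes. Those barcodes kept the leukocytes that the Ptprc limit left out of the rule cells. The lower MHC class II, S100a8 and S100a9 levels are thus a description of the rule. Against goblet and secretory cells, and against basal cells, 1 gene of the MHC class II list was measured and 0 were called. No gene of the multiciliated list was measured.

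**Figure D3:**
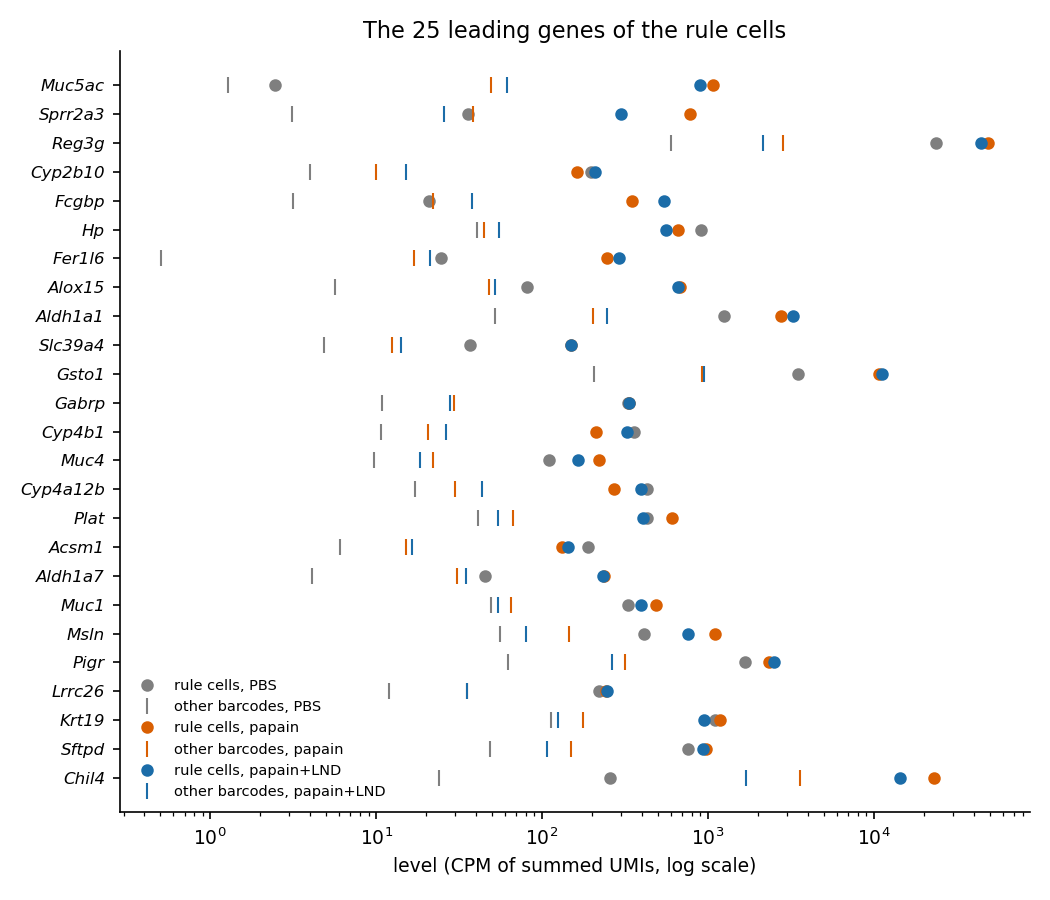
Levels (CPM of summed UMIs, log axis) of the 25 genes that lead in rule cells over other barcodes, in rule cells (dots) and other barcodes (ticks) of the 3 libraries. Reg3g and Gsto1 are high in all 3, whereas Muc5ac, Sprr2a3, Fcgbp, Fer1l6, Alox15 and Chil4 lie further left in PBS.

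The 12 genes of the M cell list, from which Gp2 was left out, gave mixed values. Spib, a transcription factor that M cells require, stood at 0, 2.98 and 0.265 CPM, Sox8 at 0, 0.372 and 0.265, and Ccl9 at 4.93, 4.59 and 3.85. Tnfaip2, a gene known from M cells and induced by TNF, stood at 82.6, 247 and 173 CPM and was found in 67.6% of papain rule cells. Pglyrp1, a peptidoglycan recognition protein, stood at 559, 1228 and 1453 CPM and was found in 97.7% of them. In mature olfactory neurons of the papain library the shares were 8.84% and 9.53%. Against the other papain barcodes 5 genes of the list were measured, of which Pglyrp1 was higher and Marcksl1 lower. Both Tnfaip2 and Pglyrp1 were higher with papain than with PBS in rule cells, among 4 measured. Without the rule cells that held 3 neuron markers at 2 UMIs, 1 of 4 was higher. Tnfaip2 and Pglyrp1 were also higher in papain rule cells than in basal cells, and Tnfaip2 than in goblet and secretory cells. By Pearson's r of log2 CPM over genes in the papain library, a description in which the genes are not independent, the rule cells were most like goblet and secretory cells (0.787, 208 cells) and basal cells (0.775, 1657 cells). Squamous cells followed at 0.699 and sustentacular cells at 0.625. These comparison cells had at least 3 markers of their own list at 2 UMIs and were not rule cells. The markers of both lists overlapped with the rule: 3, 121 and 103 rule cells met the goblet and secretory criterion (7.90%, 25.5% and 21.9%), and 7, 99 and 90 the basal one (18.4%, 20.8% and 19.1%).

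Against the goblet and secretory cells of the papain library, 261 of 2786 genes (9.37%) were higher in rule cells and 96 (3.45%) lower, with a median log2 ratio of 0.27. F5, coagulation factor V, had a log2 ratio of 6.42. Keratins and cornified-envelope genes followed, with Krt6a at 4.95, Sprr2a3 at 4.87 and Krt15 at 4.03. Hp (3.96), Tnip3 (3.58) and Alox15 (3.17) were also higher. Lower were genes of gland and goblet secretions: Clca3a2 at -8.04, Bpifb3 at -6.31, Bpifb4 at -6.28, Vmo1 at -6.00 and Scgb1c1 at -5.62. In the mucin and goblet list 5 of 13 genes were lower in rule cells (Muc5b, Muc16, Agr2, Tff2 and Bpifb1) and 0 higher, and part of that list chose the comparison cells. Against basal cells 213 of 3064 genes (6.95%) were higher and 251 (8.19%) lower, with a median of -0.06. Higher were Muc5ac (6.25), Itln1 (5.78), Lyz2 (5.43), Pigr (5.42), Alox15 (5.07), Ltf (4.46) and Reg3g (4.32). Lower were Igfbp2 (-5.92), Nrcam (-5.40), the prostaglandin-degrading enzyme Hpgd (-4.65), Apoe (-4.35) and Trp63 (-4.27), the last a basal marker that chose those cells.

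With papain the rule cells held more RNA of most measured genes of the IL-13, squamous and basal lists than the 38 PBS rule cells. They also held more of 3 neutrophil-attracting chemokines and less of most sterol-synthesis genes. Several of the higher genes were measured only through their papain level, which nearly binds them to be called higher. The list counts below are thus partly set by the filter on mean level. Of 3112 measured genes 119 (3.82%) were higher and 139 (4.47%) lower, with a median log2 ratio of -0.16. When each side was scaled by the median of ratios, which sets that median to 0, 171 were higher and 81 lower, so the share of higher genes among the calls went from 46.1% to 67.9%.

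Of the 21 listed genes known to respond to IL-13, 7 were measured. Of these 5 were higher and 0 lower, with a median of 3.46, and Muc5ac, Itln1 and Fcgbp were measured only through their papain level. Muc5ac, a gel-forming mucin, had 2 UMIs in PBS rule cells (2.46 CPM) and stood at 1074 and 901 CPM in papain and papain+LND, a log2 ratio of papain over PBS of 8.45 (6.92 to 11.81). It was seen in 5.26%, 24.2% and 19.3% of rule cells, so its RNA came from a minority, and in 0.0915%, 2.21% and 2.30% of mature olfactory neurons, which should lack it. Chil4, a chitinase-like protein, stood at 256, 23034 and 14380 CPM (log2 6.49, 6.29 to 6.69). In PBS 3 of 38 cells held a UMI of Chil4, and 45.7% of its UMIs came from 1 cell. It was found in 96.2% and 90.2% of papain and papain+LND rule cells, with a median over cells of 7463 and 1588 CPM. A UMI of Chil4 was also held by 0.427%, 55.9% and 31.1% of those neurons, at median depths of 8037, 7574 and 7015 UMIs. The source of the Chil4 RNA in neurons was not tested. At 5000 UMIs per cell, Chil4 was found in 7.90%, 87.1% and 79.0% of rule cells and in 0.304%, 41.5% and 23.2% of the neurons. Alox15, the lipoxygenase that oxygenates arachidonic and linoleic acid, stood at 81.3, 677 and 663 CPM (log2 3.05, 2.71 to 3.43). It was found in 47.4%, 80.6% and 80.3% of rule cells and in 1.16%, 7.39% and 5.58% of the neurons. After the same thinning Alox15 was found in 26.3%, 66.0% and 69.0% of rule cells. Fcgbp, a mucus protein, stood at 21.0, 349 and 547 CPM, and Itln1, an intelectin that binds microbial sugars, at 12.3, 142 and 276.

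The mucin and goblet list held 6 of 10 measured genes that were higher, and Muc16 lower. Muc16 was found in 4 of 38 PBS rule cells, and the tenth of those cells richest in it held 96.7% of its UMIs. Agr2, a protein disulfide isomerase needed to fold mucins, stood at 128, 937 and 941 CPM. Tff2, a trefoil peptide, stood at 184, 778 and 1314 CPM, with 44.3% of its PBS UMIs from 1 cell, and Muc5b at 107, 479 and 897, with 82.8% from 1 cell. In the squamous and cornified list 5 of 7 were higher. Sprr2a3, a small proline-rich protein of the cornified envelope, stood at 35.7, 780 and 299 CPM (log2 4.42, 3.92 to 5.03). Krt16, a keratin of stressed epithelium, had 0 UMIs in PBS and was at least 28.9-fold higher with papain, at 107 CPM. Krt6a stood at 19.7, 171 and 93.6 CPM, with 56.3% of the PBS UMIs in 1 cell. Of basal genes 4 of 6 were higher, among them Krt15 at 571, 1408 and 1072 CPM and Krt14 at 32.0, 151 and 85.1, with 80.8% of the PBS UMIs of Krt14 in 1 cell. Of the simple epithelial keratins and Epcam only Krt23 was higher, of 6 measured, with a median of 0.33. Among chemokines 3 of 7 were higher: Cxcl1 (81.3, 282 and 338 CPM), Cxcl2 (184, 716 and 649) and Cxcl5 (7.39, 169 and 42.7), all of which draw neutrophils. Krt16, Krt6a, Sprr2a3, Krt14 and Cxcl5 were measured only through their papain level. The squamous, basal and chemokine counts thus partly follow from the filter on mean level. Tnip3, an inhibitor of NF-kB signalling, stood at 19.7, 276 and 104 CPM. Of antimicrobial genes 4 of 9 were higher, with lactoferrin (Ltf) at 2471, 10748 and 10546 CPM. In the ion and fluid transport list 0 of 12 were called in either direction.

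Lower in papain rule cells were genes of the sterol pathway: 8 of 11 measured, with a median of -1.44, and 0 were higher. Hmgcs1, the enzyme that makes HMG-CoA, stood at 195, 72.2 and 69.2 CPM. Fdps, which makes farnesyl diphosphate, stood at 165, 45.6 and 34.9 CPM, and Msmo1, a sterol oxidase, at 124, 36.2 and 28.0. Insig1, which holds the sterol-sensing complex in the endoplasmic reticulum and is itself induced by it, stood at 237, 56.4 and 69.2 CPM (log2 -2.07), and the desaturase gene Scd2 at 320, 90.0 and 108. Under median-of-ratios scaling 7 of the 11 were lower. RNA of mature olfactory neurons was also lower in the papain rule cells: 7 of 38 PBS rule cells (18.4%), 14 of 475 papain ones (2.95%) and 15 of 471 papain+LND ones (3.19%) held 3 neuron markers at 2 UMIs. The sterol list summed to 1445, 593 and 518 CPM in rule cells and to 1832, 820 and 815 in neurons. With those neuron-marked cells left out, a step added after seeing the data, it summed to 1377, 600.3 and 510 CPM in rule cells, and 7 of 11 genes were lower (median -1.30). Among glycolysis and lonidamine-target genes 7 of 18 were lower and Hk2, a hexokinase, was higher (35.7, 90.4 and 64.4 CPM), with a median of -0.80. Under median-of-ratios scaling 3 were lower, and without the neuron-marked cells 7. Slc16a7, the monocarboxylate transporter MCT2, stood at 173, 44.7 and 65.1 CPM. Of the nuclear respiratory-chain genes 3 of 20 were lower, and 1 under median-of-ratios scaling. Ppargc1a, a coactivator of mitochondrial gene programmes, stood at 228, 40.2 and 56.1 CPM (log2 -2.51), with a median over cells of 135, 0 and 0. Without the neuron-marked cells it stood at 232, 39.3 and 57.1 CPM. The inhibitors of differentiation Id1 (503, 143 and 246 CPM) and Id3 (298, 73.3 and 166) and the FGF-binding protein Fgfbp1 (187, 38.9 and 26.0) were lower as well. The largest negative ratios belonged to Dmbt1, Gpnmb and Fxyd2, for which 1 PBS cell held more than 50% of the UMIs.

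**Figure D4:**
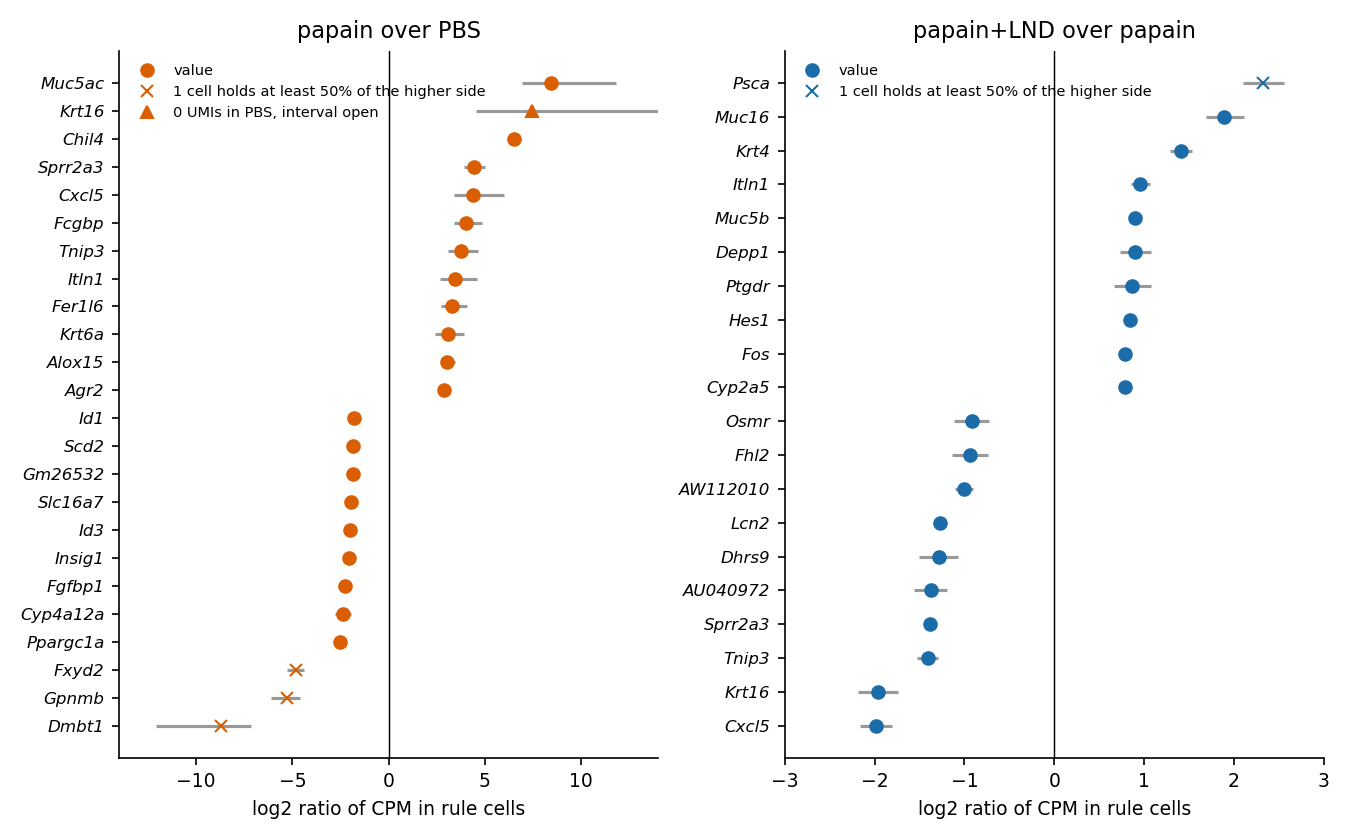
Log2 ratios of CPM in rule cells for papain over PBS (left) and papain+LND over papain (right), with 95% counting intervals. Crosses mark genes with at least 50% of the higher side in 1 cell, and the triangle marks Krt16, at 0 UMIs in PBS. Muc5ac and Chil4 lie at 8.45 and 6.49 on the left. The scale on the right is narrower, and Cxcl5 at -1.98 is its lowest gene.

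The same libraries gave these lists in the other epithelial cells, and since the libraries are shared, the values are set side by side only. In goblet and secretory cells 111 of 2642 genes (4.2%) were higher with papain and 100 (3.79%) lower, and in basal cells 162 of 3192 (5.08%) and 107 (3.35%). Of the IL-13 list 4 of 7 measured genes were higher in goblet and secretory cells (Fcgbp, Itln1, Muc5ac and Chil4; median 2.01), and 1 of 2 in basal cells (Chil4; median 3.46). Chemokines were higher in 3 of 6 in goblet and secretory cells (Ccl28, Cxcl1 and Cxcl2) and in 1 of 5 in basal cells (Cxcl2), where Ccl20 was lower. Glycolysis and lonidamine-target genes were lower in 4 of 15 and 6 of 19, and Hk2 was higher in goblet and secretory cells. Sterol genes were lower in 9 of 11 in goblet and secretory cells and in 8 of 11 in basal cells, with medians of -1.30 and -1.56. Squamous and cornified genes were higher in 6 of 7 in basal cells (median 2.47). Chil4 had log2 ratios of 6.49 in rule cells, 4.25 in goblet and secretory cells and 6.16 in basal cells. For Alox15 the ratios were 3.05, 0.26 and 2.86. In basal cells Alox15 did not reach a mean of 50 CPM, so its 2.86 there rests on a low level and was not called. For Reg3g they were 1.05, 0.60 and 1.71, and for Ltf 2.12, 1.80 and 3.56.

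**Figure D5:**
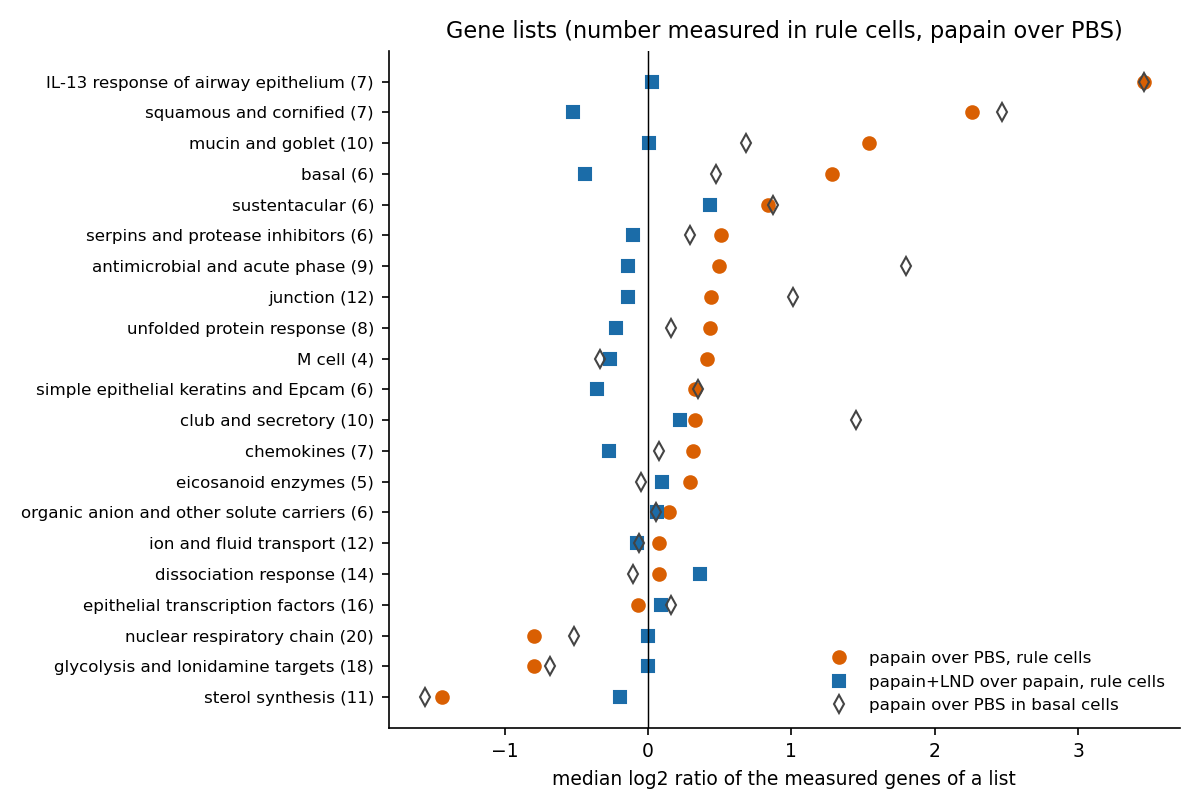
Median log2 ratio of the measured genes of each list for papain over PBS in rule cells (orange), papain+LND over papain in rule cells (blue) and papain over PBS in basal cells (open diamonds). Sterol synthesis lies lowest in both papain over PBS series, at -1.44 and -1.56, and the IL-13 list highest, at 3.46, with 7 genes measured in rule cells and 2 in basal cells.

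Promoters of genes that differed in the rule cells are shown because STAT factors, which carry the IL-13 and other cytokine signals, bind pairs of TTC and GAA. The 250 bases before the start site were taken from RefSeq (GRCm38.p6, an older build than the GRCm39 named for the deposited counts) and searched for TTCNNNNGAA and TTCNNNGAA. Each motif reads the same on both strands, and the pair share their outer letters, so matches may overlap. TTCNNNNGAA was in 5.85% of 32851 promoters, TTCNNNGAA in 7.02% and at least 1 of them in 12.4%. Of the 12 named genes higher with papain 6 had an entry and 2 of these, Chil4 and Sprr2a3, a match. Of the 12 lower genes 5 had an entry and 0 a match, and of the 10 genes lower with papain+LND 8 had an entry and 2, Lcn2 and Sprr2a3, a match. Capitals mark the matches, which begin 200 bases before the start site in Chil4, 249 and 176 in Sprr2a3 and 156 in Lcn2. The match in Chil4 and that at 249 in Sprr2a3 have the form TTCNNNGAA. The match at 176 in Sprr2a3 and that in Lcn2 have the form TTCNNNNGAA. Of the 6 rule genes 5 had an entry and 2, Kcnj16 and Slco1a5, a match, and Alox12e, which had 0, is printed as the rule gene that differed most in share of cells between PBS and papain. A match is a description of letters, and nothing about a factor is drawn from it. The windows are chr11:70322531-70322780 (minus strand) for Alox12e, chr3:106219480-106219729 (minus) for Chil4, chr3:92285054-92285303 (plus) for Sprr2a3 and chr2:32387740-32387989 (minus) for Lcn2.
Alox12e: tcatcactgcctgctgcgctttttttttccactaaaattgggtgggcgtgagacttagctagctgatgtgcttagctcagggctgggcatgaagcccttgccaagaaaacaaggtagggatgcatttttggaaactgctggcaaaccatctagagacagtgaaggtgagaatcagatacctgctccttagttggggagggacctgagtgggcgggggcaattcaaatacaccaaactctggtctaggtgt
Chil4: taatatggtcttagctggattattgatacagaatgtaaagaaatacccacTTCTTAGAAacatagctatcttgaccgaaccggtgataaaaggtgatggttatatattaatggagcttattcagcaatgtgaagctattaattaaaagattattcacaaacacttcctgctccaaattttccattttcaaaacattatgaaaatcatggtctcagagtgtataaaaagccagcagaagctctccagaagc
Sprr2a3: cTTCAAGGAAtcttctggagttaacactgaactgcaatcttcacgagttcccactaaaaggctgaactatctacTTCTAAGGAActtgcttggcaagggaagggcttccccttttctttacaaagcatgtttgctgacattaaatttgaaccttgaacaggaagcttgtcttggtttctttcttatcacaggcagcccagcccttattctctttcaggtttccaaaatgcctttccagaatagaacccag
Lcn2: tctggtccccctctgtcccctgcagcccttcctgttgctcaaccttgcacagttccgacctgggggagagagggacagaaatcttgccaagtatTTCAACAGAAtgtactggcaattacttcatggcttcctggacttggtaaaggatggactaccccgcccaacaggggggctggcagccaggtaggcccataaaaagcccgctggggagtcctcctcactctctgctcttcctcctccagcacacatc

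Between the 2 papain libraries the rule cells differed in few genes. Of 2990 measured genes 16 (0.535%) were higher with papain+LND and 8 (0.268%) lower, and the median log2 ratio was 0.02. Of the glycolysis and lonidamine-target list 0 of 17 were called, with a median of 0.00, and of the respiratory-chain list 0 of 20. Of the IL-13 list 0 of 7 were called, with a median of 0.03, and Alox15 stood at 677 and 663 CPM. Chil4, at 14380 against 23034 CPM, did not reach a ratio of 2 (log2 -0.68, -0.69 to -0.67).

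Among the genes lower with papain+LND were an iron-scavenging defence protein, a neutrophil chemokine and an NF-kB inhibitor. Lcn2, a siderophore-binding protein, stood at 2934 CPM with papain and 1217 with papain+LND (log2 -1.27, -1.31 to -1.24), and its median over cells was 1067 and 522 CPM. The PBS level of Lcn2 was 1275 CPM. Cxcl5 stood at 169 and 42.7 CPM (log2 -1.98, -2.17 to -1.81) and was found in 23.4% and 10.8% of rule cells, or 16.6% and 6.29% at 5000 UMIs per cell. Tnip3 stood at 276 and 104 CPM and was found in 65.3% and 36.5% of cells, or 49.8% and 22.3% at 5000 UMIs. Of mature olfactory neurons, 2.97% and 1.90% held a UMI of Cxcl5 and 1.96% and 1.32% of Tnip3. Sprr2a3 had a log2 ratio of -1.38, Krt16 of -1.96, and Dhrs9, a retinol dehydrogenase, of -1.28. Osmr, the receptor for oncostatin M, stood at 79.9 and 42.3 CPM (log2 -0.92) and was not called. In the neutrophil marker list the other barcodes of the library, not the rule cells, stood at 735 CPM with papain and 3427 with papain+LND, and the part of this in the result was not tested.

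Of the 16 genes called higher with papain+LND, 13 were less abundant in those rule cells than in the other barcodes of the library, among them the odorant-binding genes Obp1a and Obp1b and the secretion genes Bpifb4, Bpifb6, Vmo1 and Scgb1c1. Bpifb6 stood at 34.5 and 449 CPM in the rule cells of papain and papain+LND and at 1198 and 2033 CPM in their other barcodes, whose part in these ratios was not tested. The remaining called genes were Psca, Krt4 and Muc16. For Psca 1 cell held 94.0% of the UMIs with papain+LND, and for Krt4 28.5%. Muc16, a membrane mucin, stood at 29.6 and 110 CPM, a log2 ratio of 1.90 that was 2.01 in female and -5.71 in male rule cells. The other named genes with positive ratios did not reach the ratio of 2. Cyp2a5, a cytochrome P450 of olfactory and respiratory mucosa, stood at 3779 and 6505 CPM (log2 0.78), with medians over cells of 2034 and 5000. Hes1, a Notch target, stood at 379 and 678 CPM, and Fos at 1460 and 2523. Over the 14 genes of the dissociation response, which tissue digestion is known to induce, the median ratio was 0.36, with Dusp1 at 0.70 and Hspa1a at 0.70, and their part in the result was not tested. Muc5b stood at 479 and 897 CPM, but its ratio turned to -0.57 in cells thinned to 5000 UMIs. Itln1 had a ratio of 0.96, and of -0.23 among cells with at least 4 rule genes.

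Rule cells with and without 1 rule gene at 2 UMIs are set side by side as a description only. Both sides differ by construction, since cells without the gene must hold 3 of the other 5, and the genes given were chosen after their values were seen, for their difference in both papain libraries unless said otherwise. In the papain library 376 cells carried Alox12e and 99 did not. The carriers held more Alox15 (808 against 172 CPM), Ltf (12381 against 4428) and Msln (1273 against 459), and less Bpifa1 (8777 against 45639) and Scgb3a1 (50.9 against 226). The tenth of rule cells richest in Bpifa1 held 98.6% of its UMIs with papain and 96.8% with papain+LND. The Bpifa1 difference thus rests on a small part of the cells. In papain+LND the Alox15 log2 ratio was 2.18, close to the 2.23 of the papain library. Carriers of Gp2 (137 against 338 cells) held less Krt5 (26.8 against 264 CPM), Krt14 (36.9 against 199) and Krt15 (488 against 1794), and more Reg3g (71841 against 39598), Lyz2 (4342 against 1721) and Bpifb1 (352 against 91.3). For Krt5 the log2 ratios were -3.29 and -2.77 in the 2 papain libraries. Muc5ac, by contrast, turned between them, at 1.10 and -0.90 for carriers of Gp2 and at -0.25 and 0.87 for carriers of Alox12e. Carriers of Clca1 (67 against 408 cells) held more Muc5ac (4879 against 384 CPM), Fcgbp (911 against 248) and Spdef (116 against 32.7), the transcription factor of goblet cells, and less Cyp2a5 (1814 against 4135) and F5 (46.0 against 141). For Spdef the log2 ratios were 1.83 and 1.80, and for Muc5ac 3.67 and 1.68.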

How the data were processed

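The deposited values are UMI counts per gene and barcode, not normalized, per the file headers. Version 7.1.0 of cellranger stands in those headers, whereas the submitters' processing notes name Cell Ranger 2.1.1 with GRCm39. No source used here says whether the authors removed doublets. Shares carry exact binomial intervals. UMIs were summed over rule cells of a library, divided by the total to give CPM, and compared as log2 ratios with 0.5 counts added and a conditional binomial 95% interval. Genes needed a mean of 50 CPM over both sides, and 2-fold was called; rule genes and Ptprc were left out of the counts. Named genes were the 25 leading in rule cells of both papain libraries, the 12 highest and lowest for papain over PBS, 10 each way for papain+LND over papain and against each comparison population, and up to 4 per list with the largest ratios; sex-linked, mitochondrial and ribosomal RNA genes were left out of the ratios between libraries. The cells, the 26 gene lists and the markers were chosen with earlier results of these data known. The scripts were tested on simulated data. Python 3.11.15, numpy 2.4.6, scipy 1.17.1 and scanpy 1.11.5 (Scrublet) were used.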

Additional observations from a re-analysis of the deposited data

Results flagged for a closer look

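Within the rule cells, the ratio of papain+LND over papain had opposite signs in female and male barcodes for 2 named genes, and the difference was not tested. For Muc16 the log2 ratio was 2.01 in female cells and -5.71 in male cells. A UMI of Muc16 was found in 37 of 475 papain and 66 of 471 papain+LND rule cells of both sexes. The male ratio thus rests on few cells. With 0.5 counts added, a ratio against a side near 0 UMIs is no measure of size. For Psca it was 2.96 in female cells and -6.23 in male cells, and 1 cell held 94.0% of the papain+LND UMIs of Psca. The papain+LND library held 43 male rule cells and the papain library 71.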

How the results depend on the processing

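Each result was computed again with 2 or 4 rule genes, 1 or 3 UMIs per gene, Ptprc ignored, 10% mitochondrial UMIs, 2000 UMIs, cells thinned to 5000 UMIs, Scrublet calls left out, 1 sex, other level filters, a pseudocount of 1 and other scalings. Cells with Slco1a5, Serpinb11 and Kcnj16, cells chosen without Alox12e, an epithelial denominator and leaving out rule cells with 3 neuron markers were added after seeing the data. For the share of member cells, papain over PBS, the ratio was 4.53 with 2 rule genes, 29.9 with 4, 23.6 thinned, 33.2 in male cells and 7.50 among epithelial barcodes.

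The number of genes 2-fold higher in members, papain over PBS, went from 119 to 204 thinned, 207 at 20 CPM, 1564 without a filter and 66 at 100 CPM. The number of genes 2-fold lower in members, papain over PBS, went from 139 to 72 with 2 rule genes, 292 with 4, 597 thinned, 358 at 20 CPM, 5965 without a filter, 70 at 100 CPM and 81 with median-of-ratios scaling. The count of genes 2-fold higher in members, papain+LND over papain, went from 16 to 8 at 1 UMI, 9 without Ptprc, 51 in male cells, 37 at 20 CPM, 3292 without a filter and 10 at 100 CPM. The count of genes 2-fold lower in members, papain+LND over papain, went from 8 to 16 thinned, 120 in male cells, 16 at 20 CPM, 3174 without a filter and 5 at 100 CPM. The count of genes 2-fold higher in members than in other barcodes, papain library, went from 281 to 441 at 20 CPM, 5579 without a filter, 169 at 100 CPM and 181 among epithelial barcodes. The count of genes 2-fold lower in members than in other barcodes, papain library, went from 420 to 1192, 9870, 175 and 201.

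For papain+LND over papain the ratio of AU040972 turned to 0.33 in male cells and that of Muc16 to -5.71. That of Psca was -1.74 at 3 UMIs, -0.91 thinned, -6.23 in male cells, -1.70 without neuron-marked rule cells and -2.80 with Slco1a5, Serpinb11 and Kcnj16 all required. The causes were not tested. Papain over PBS was not run for genes in male cells, since PBS held 3 male rule cells. No paired analysis was possible because each group is 1 library, and no replicate could be left out. The 38 PBS rule cells, with 811575 UMIs, limit every ratio over PBS.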
